A study of Caenorhabditis elegans with 2 samples.

Results

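The autosomal promoter regions described here are 445 of the 30000 candidate regions that the authors listed for pooled LIN-39-eGFP chromatin immunoprecipitation from Caenorhabditis elegans. They were selected by the signal of the pooled list itself: the 2000 regions of highest signal were kept, the 464 on the X chromosome were dropped, and 445 of the 1536 autosomal regions had a summit that lay no more than 1000 bp before or 200 bp after the annotated 5′ end of a protein-coding gene (ce11). The comparison set was the 5173 autosomal promoter regions of lower rank in the same list. High signal and place near a 5′ end are therefore the way these regions were chosen and not findings. The list keeps background regions along with peaks, so a region in it is a candidate and not a called site, and the authors' thresholded list held 56 of the 445 (12.6%), against 0.543% of all 30000 regions, a share fixed by the same signal as the choice.

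The study has 1 group with 2 biological replicates and no second condition. Both were whole L4 larvae of mixed sex, of strain OP18, which has the genotype unc-119(ed3) III and the integrated transgene wgIs18. The transgene adds LIN-39 fused to eGFP, and the signal is an average over all cells of the animal. The labels name 1 control experiment for both replicates, and it was not analysed here; the read depth is not in the files used.

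LIN-39 is a Hox protein of the worm midbody, known for its part in vulval precursor fate and in neuroblast migration, and Hox proteins often bind DNA together with Pbx-type partners such as CEH-20. Promoters in the worm are often short and shared between neighbouring genes, and many genes lie in operons or receive a spliced leader, so an annotated 5′ end can be a splice acceptor and not the start of transcription. In worm chromatin immunoprecipitation, promoters of broadly expressed genes are often recovered with many unrelated factors; such data for other factors were not analysed here.

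The 6 highest members on the chromosomes from which sequence is shown give a view of what the top of the list looks like. Each line holds 201 bases centred on the summit, written 5′ to 3′ on the strand of the promoter gene, from the RefSeq genome of build WBcel235 (ce11). Capitals mark the pattern GAGAGA, the pattern ACACGC and the pattern CTGCGTC on either strand, so that the complements of all 3 are marked too.
cdc-48.1: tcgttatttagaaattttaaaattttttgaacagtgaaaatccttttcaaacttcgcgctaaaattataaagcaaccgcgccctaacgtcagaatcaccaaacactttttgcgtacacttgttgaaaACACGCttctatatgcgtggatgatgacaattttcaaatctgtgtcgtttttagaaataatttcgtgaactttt
rpl-3: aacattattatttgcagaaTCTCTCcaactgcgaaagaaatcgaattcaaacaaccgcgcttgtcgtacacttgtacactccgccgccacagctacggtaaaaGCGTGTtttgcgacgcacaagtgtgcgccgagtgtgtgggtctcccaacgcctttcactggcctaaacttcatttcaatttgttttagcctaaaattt
rpl-35: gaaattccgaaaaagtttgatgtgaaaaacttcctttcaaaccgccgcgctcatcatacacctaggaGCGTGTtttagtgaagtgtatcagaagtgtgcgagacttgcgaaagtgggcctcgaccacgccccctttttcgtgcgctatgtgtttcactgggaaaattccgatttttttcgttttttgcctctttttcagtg
Y17G9B.5: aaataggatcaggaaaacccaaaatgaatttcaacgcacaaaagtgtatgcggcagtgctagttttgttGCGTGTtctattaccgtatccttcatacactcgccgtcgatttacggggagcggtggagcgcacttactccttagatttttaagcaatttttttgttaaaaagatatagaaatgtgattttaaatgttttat
rpl-15: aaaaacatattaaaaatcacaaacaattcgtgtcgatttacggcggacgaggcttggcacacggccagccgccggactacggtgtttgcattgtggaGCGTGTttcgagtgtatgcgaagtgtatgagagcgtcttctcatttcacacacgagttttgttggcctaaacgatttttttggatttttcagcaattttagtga
H41C03.3: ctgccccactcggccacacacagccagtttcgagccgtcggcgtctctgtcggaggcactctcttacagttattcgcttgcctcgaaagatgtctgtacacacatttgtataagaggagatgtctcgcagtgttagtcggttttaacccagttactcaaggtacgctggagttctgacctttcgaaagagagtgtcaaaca

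The windows lie at chrII:10563478-10563678 (minus strand) for cdc-48.1, chrIII:3867474-3867674 (plus strand) for rpl-3, chrIII:7854606-7854806 (plus) for rpl-35, chrIV:4749995-4750195 (plus) for Y17G9B.5, chrIV:654823-655023 (minus) for rpl-15 and chrII:5844727-5844927 (plus) for H41C03.3. ACACGC or its complement was in 5 of the 6 windows and not in that of H41C03.3. The members egg-5, algn-10 and tub-2, which rank among these but whose windows are not shown, held it in 1 case of 3, so it was in 6 of the 9 highest members. It began 3 bp from the summit at rpl-3 and at rpl-15, 27 bp away at cdc-48.1, 31 bp at Y17G9B.5 and 33 bp at rpl-35. The pattern was singled out after these windows had been read, so its presence in them is a description; its share over all members is given with the scan of 6-letter patterns. The cdc-48.1 window also held TATAAA, 35 bp upstream of the summit, and the rpl-35 and rpl-15 windows held TTTCAG, a splice-acceptor type pattern, 93 and 83 bp downstream of it.

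The next 5 windows are the highest remaining members on the same chromosomes with CTGCGTC or with GAGAGA, again 201 bases on the strand of the gene, with the same marks in capitals. The first 3 are shown for CTGCGTC and the last 2 for GAGAGA.
eelo-2: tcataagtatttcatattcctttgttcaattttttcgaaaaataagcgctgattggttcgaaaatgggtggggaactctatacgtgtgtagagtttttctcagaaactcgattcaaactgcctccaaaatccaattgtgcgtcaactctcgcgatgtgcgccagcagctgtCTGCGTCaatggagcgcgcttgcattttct
T01D3.3: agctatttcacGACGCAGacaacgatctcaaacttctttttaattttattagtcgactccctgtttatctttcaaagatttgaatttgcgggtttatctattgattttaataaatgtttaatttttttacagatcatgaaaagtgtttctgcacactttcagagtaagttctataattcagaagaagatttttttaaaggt
fbxl-1: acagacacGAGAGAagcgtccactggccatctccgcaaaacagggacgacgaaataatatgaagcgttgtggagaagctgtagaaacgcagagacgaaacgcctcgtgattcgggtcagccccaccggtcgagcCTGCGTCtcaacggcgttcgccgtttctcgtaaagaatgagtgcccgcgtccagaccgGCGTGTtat
K12H4.5: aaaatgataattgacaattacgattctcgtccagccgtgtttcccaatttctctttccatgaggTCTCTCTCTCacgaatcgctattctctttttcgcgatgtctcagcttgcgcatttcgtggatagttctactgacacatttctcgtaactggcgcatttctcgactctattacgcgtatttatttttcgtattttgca
unc-76: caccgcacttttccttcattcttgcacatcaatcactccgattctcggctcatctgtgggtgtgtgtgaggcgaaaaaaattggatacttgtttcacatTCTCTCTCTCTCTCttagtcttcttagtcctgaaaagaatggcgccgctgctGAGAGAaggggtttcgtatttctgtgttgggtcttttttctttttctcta

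These windows lie at chrIV:17249736-17249936 for eelo-2, chrV:13703201-13703401 for T01D3.3, chrIII:8227600-8227800 for fbxl-1, chrIII:8043875-8044075 for K12H4.5 and chrV:15071154-15071354 for unc-76, all on the plus strand. The GA repeat of unc-76, a gene needed for axon bundling, began 1 bp upstream of the summit, and that of K12H4.5 began 36 bp upstream of it. The fbxl-1 window, at a gene for an F-box and leucine-rich repeat protein, held all 3 patterns. A match of letters is a description of the window and not a mapped site.

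Signals are given here as relative signals, each region's signal divided by the median signal of its own list, so that 1 is the middle of that list. Members ran from 1.51 to 8.51 in the pooled list with a median of 1.68, and the upper quartile was 1.91. The choice drew its lower edge through a continuous range. The last members inside were T04C9.2, C45G9.6 and gst-27, each at 1.51, and the first autosomal promoter regions outside were rga-9, fib-1 and W08A12.3, also each at 1.51.

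The highest member lay 171 bp upstream of cdc-48.1, which codes for an AAA ATPase that extracts ubiquitylated proteins (region chrII:10563406-10563749). Its relative signal was 4.34 in replicate 1 and 10.2 in replicate 2, a mean of 7.28 ± 4.16 (SD, n = 2), so the replicates were far apart in level while both placed it among their 12 highest regions. The next was 698 bp upstream of egg-5, which acts when the oocyte becomes an embryo (chrI:4172115-4172458), with 4.13 and 7.66, a mean of 5.89 ± 2.49 (SD, n = 2). Replicate 2 was the higher of the pair at both. The summit of this second region lay inside the spliced leader RNA gene sls-2.4, which is nearer than the 5′ end of egg-5.

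Cytosolic ribosomal protein genes came next. The region 280 bp upstream of rpl-3 had relative signals of 4.43 and 6.74 in replicates 1 and 2 (5.58 ± 1.63, SD, n = 2), and that 428 bp upstream of rpl-35 had 4.05 and 6.13 (5.09 ± 1.47, SD, n = 2). The region of rpl-15 was at 4.0 and 3.84, a spread of 0.112 (SD, n = 2), which is small beside its mean of 3.92. The fifth highest region, nearest to Y17G9B.5 at 145 bp, also lay in the promoter window of rpl-20 on the other strand and had 4.34 and 5.33. All these values were more than 3 times the middle of the replicate's own list.

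The other regions among the 20 highest served genes of several kinds. Those upstream of algn-10, a glucosyltransferase gene of N-glycan assembly, and tub-2, a tubby-like gene, had 4.12 and 4.25, and 4.26 and 4.15, in replicates 1 and 2, close to equal in each pair. A single region lay between mig-5, a Dishevelled gene of Wnt signalling, and cct-1, a chaperonin subunit gene, with 3.05 and 3.59, and a further chaperonin gene, cct-8, shared a region with Y55F3AR.2 at 2.48 and 4.16. Chromatin and nuclear genes were represented by cbp-1, the CBP/p300 acetyltransferase gene, at 3.34 and 2.88, by lin-53, a gene for a histone-binding RbAp48 protein, at 2.21 and 3.49, and by pot-3, a gene for a telomere single-strand binding protein, at 2.91 and 2.80. The rest were H41C03.3, K12H4.5, ddp-1, unc-76, lsm-6, Y39E4B.6 and ekl-4, the last sharing its region with the ribosomal protein gene rps-20. Y39E4B.6 had one of the wider gaps, 1.91 against 3.95, and ranked 508 in replicate 1 but 30 in replicate 2.

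**Figure D1:**
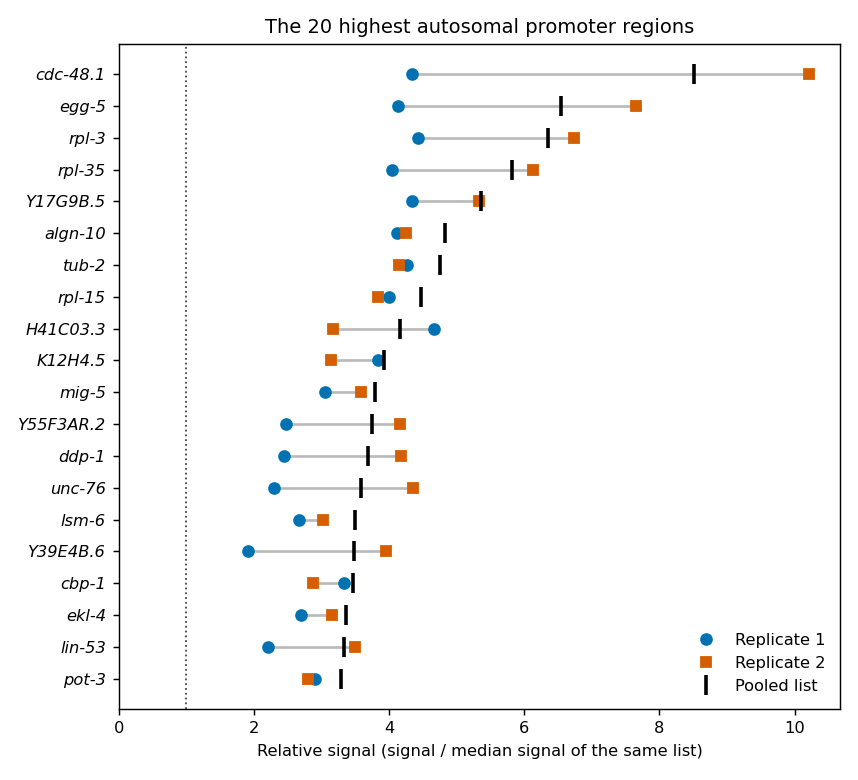
Relative signal (x axis, signal divided by the median of the same list) of the 20 highest autosomal promoter regions, named by their promoter gene, in replicate 1 (circles), replicate 2 (squares) and the pooled list (bars); the dotted line marks the list median. The cdc-48.1 region has the widest gap, 4.34 against 10.2, and rpl-15 one of the narrowest, 4.0 against 3.84.

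Most members were present in both replicate lists, and few were at the top of both. Both replicate lists held a region with its summit within 200 bp for 379 of 445 members (85.2%), against 28.9% of all 30000 pooled regions and 25.2% of the lower-ranked autosomal promoter regions. Only 66 members (14.8%) were among the 2000 highest of both replicates, against 0.803% of all regions, and 44 of those 66 were in the authors' thresholded list. Of the other 1555 regions among the 2000 highest of the pooled list, 83.2% were in both replicate lists. Among the 2000 highest of both replicates were 171 of those 1555 (10.997%). Presence in both replicate lists was thus nearly as frequent in other high-ranked regions as in members. The pooled list was made from both replicates, so these shares follow in part from the choice. The median relative signal of the members was 1.46 in replicate 1 (403 members found) and 1.60 in replicate 2 (421 found).

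The thresholded list holds the pooled ranks up to 163. By its name it was cut by IDR, the irreproducible discovery rate, which scores agreement between replicates. The higher agreement of its members therefore follows in part from how the list was made. Among the 56 thresholded members, 78.6% were in the 2000 highest of both replicates, among those ranked from 164 to 500 the share was 21.9%, and among the 214 members ranked from 1001 to 2000 it was 0.935%. Examples of members seen in 1 replicate list and not in the other within 200 bp were his-37, a histone H4 gene, at 4.27 in replicate 2, and fbxa-209, an F-box gene, at 2.68 in replicate 1. The region of ceh-38, an ONECUT homeobox gene, was found in both but at 0.912 and 4.22, below the middle of the list in replicate 1.

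**Figure D2:**
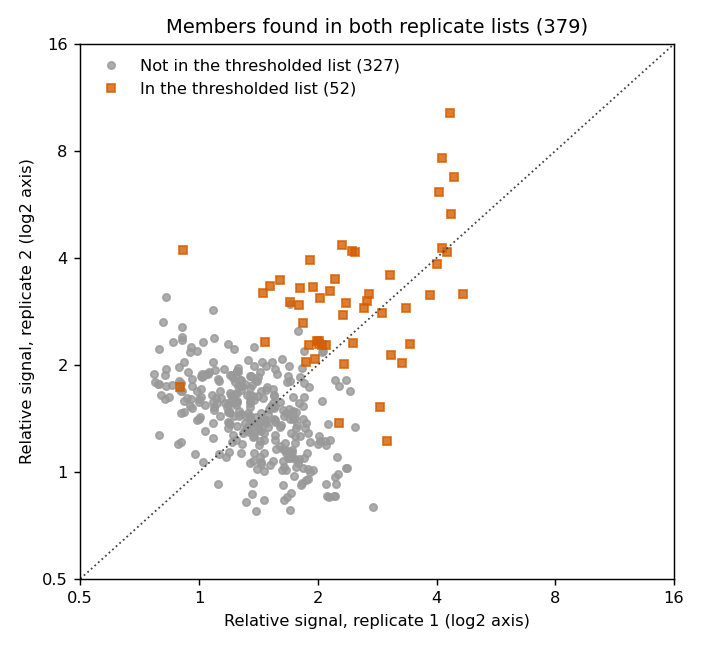
Relative signal in replicate 1 (x axis) and replicate 2 (y axis), both on log2 axes, of the 379 members found in both replicate lists; squares are the 52 in the authors' thresholded list, circles the other 327, and the dotted line marks equal values. The thresholded members reach 4.66 in replicate 1 and 10.2 in replicate 2, and 44 of the 56 thresholded members are among the 2000 highest of both. This last share follows in part from how the thresholded list was made.

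The members lay near 438 different genes, and 7 genes had 2 members each. H41C03.3 had the highest such pair, regions 950 and 751 bp upstream, with relative signals of 4.66 and 3.17 in replicates 1 and 2 for the first and 0.893 and 1.73 for the second. The sls-2.1 spliced leader gene lay between both summits. The others were sor-1, a Polycomb-type repressor of Hox genes, eat-16, an RGS protein gene, hsp-17, a small heat shock protein gene, and fbxa-209, cup-16 and T04C9.2. By chromosome there were 80 members on I, 83 on II, 84 on III, 75 on IV and 123 on V. Chromosome V held 27.6% of members and 31.0% of lower-ranked regions, II 18.7% and 19.9%, and IV 16.9% and 19.2%. On III the shares were 18.9% and 14.5%, and on I 17.98% and 15.3%. The differences between these shares were not tested.

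Within the promoter window, which the rule fixes, the place of the summit was free to vary. The median summit lay 287 bp upstream of the 5′ end in members and 352 bp in lower-ranked regions. Summits within 200 bp of the 5′ end made up 40.2% of members and 35.9% of the others, a difference that missed the threshold (two-sided Fisher's exact test, adjusted p = 0.0868 over 6 features). In all tests of this kind the regions of 1 pooled list were compared, so a p describes this list and not a spread between animals, and intervals cover counting error only.

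**Figure D3:**
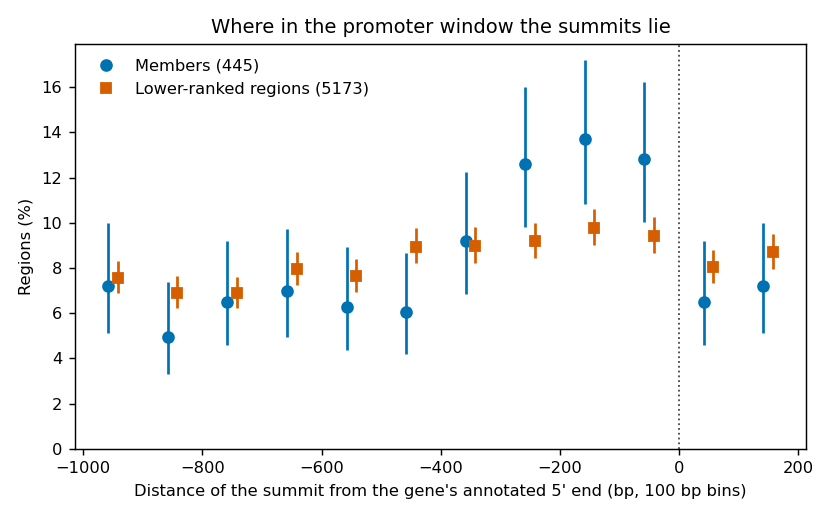
Share of regions (y axis, percent) by distance of the summit from the annotated 5′ end of the promoter gene (x axis, bp in bins of 100 bp, negative is upstream) for the 445 members (circles) and 5173 lower-ranked autosomal promoter regions (squares), with 95% Wilson intervals. The bin from 200 to 100 bp upstream holds 13.7% of members and 9.78% of the others.

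Members lay outside gene bodies more often. The summit was between annotated protein-coding genes in 310 members (69.7%) and in 59.6% of lower-ranked regions (Fisher's exact test, adjusted p = 4.0e-05 over 3 classes, added after the data had been seen). Summits in exons were fewer, 82 members or 18.4% against 27.9% (exact test, adjusted p = 3.2e-05), and those in introns made up 11.9% against 12.6% (adjusted p = 0.765). Of the 56 thresholded members, 3 had their summit in an exon (5.36%).

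Shared promoters were more frequent among members. In 73 members (16.4%, 95% Wilson interval 13.3 to 20.1%) the summit lay in the promoter windows of genes on opposite strands, against 9.70% of lower-ranked regions (Fisher's exact test, odds ratio 1.83, adjusted p = 1.7e-04 over 6 features). Such pairs included Y17G9B.5 with rpl-20, rpl-15 with K11H12.8, mig-5 with cct-1, Y55F3AR.2 with cct-8, ekl-4 with rps-20 and lin-53 with nra-2. In the list of replicate 2 alone the shares were 18.9% and 10.4% (exact test, adjusted p = 4.2e-06), and in that of replicate 1 alone 11.7% and 9.70%, which missed the threshold (adjusted p = 0.308). The call of the pooled list was thus met in replicate 2 and not in replicate 1; the difference between them was not tested.

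Genes that head an operon-like cluster, with a same-strand neighbour starting within 500 bp downstream and none upstream, were the promoter gene of 82 members (18.4%) and of 13.9% of lower-ranked regions (Fisher's exact test, odds ratio 1.40, adjusted p = 0.0219). Without the thresholded members the adjusted p was 0.0835, and in the list of replicate 1 alone it was 0.378. Genes with such a neighbour upstream, which would sit inside the cluster, made up 21.8% and 23.1% (exact test, adjusted p = 0.557).

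Small RNA genes lay within 200 bp of 7 summits (1.57%), against 0.580% of lower-ranked regions (Fisher's exact test, odds ratio 2.74, adjusted p = 0.0359). They were 3 spliced leader RNA genes, sls-2.4 at the egg-5 region, sls-2.1 at both H41C03.3 regions and sls-2.8 at that of Y75B8A.23, and 3 small nucleolar RNA genes, at the regions of fbxl-1, F55A11.11 and gst-27. Both H41C03.3 regions overlap each other, and the test counted them as separate cases. The summits at egg-5 and Y75B8A.23 were inside the spliced leader gene itself, and the Y75B8A.23 region had relative signals of 1.53 and 2.04 in replicates 1 and 2. Among these, 4 regions were thresholded members, and without the thresholded members the odds ratio was 1.33 (exact test, adjusted p = 0.600).

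The outer arms, the outermost 25% of the chromosome length on each side, which on worm autosomes hold many members of fast-evolving gene families, contained 144 summits (32.4%), against 40.3% of lower-ranked regions (Fisher's exact test, odds ratio 0.710, adjusted p = 0.00305). With a promoter window of 500 bp upstream to 100 bp downstream the shares were 36.9% and 39.3% (exact test, adjusted p = 0.476).

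The gene lists give the same regions by role. Beside all counts stands the background: 7.92% of the 5618 autosomal promoter regions were members. The lists were chosen with earlier results on these data known. They are described by counts, with intervals that are not adjusted for the number of lists, and none was tested. Ribosomal protein genes had the highest share among lists with 10 or more regions. Of 31 regions whose promoter gene was a cytosolic ribosomal protein gene, 13 were members (41.9%). They lay at rpl-3, rpl-35, rpl-15, rps-15, rpl-12, rps-28, rps-1, rps-14, rpl-21, rpl-23, rps-4, rps-11 and rpl-4. The median relative signal over the 31 was 1.27, against 1.00 over all autosomal promoter regions. Counting every gene whose window holds the summit, 17 of 47 were members. Their levels differed widely. The region of rps-15 was at 2.31 and 2.77 in replicates 1 and 2, rpl-12 at 1.51 and 3.34, and rps-1 at 1.10 and 1.93. Below the list middle in 1 replicate were rps-14 (0.810 and 2.64), rpl-21 (0.896 and 1.70) and rpl-4 (1.86 and 0.948). The rpl-23 region was not found in replicate 2, and that of rps-11 was not found in replicate 1. All other ribosomal protein members were above the list middle in both. Of 13 regions of translation factor genes, 4 were members, eef-2 and eef-1G (elongation), iff-2 (eIF5A) and eif-3.C (initiation), with eef-2 at 1.97 and 2.08, close between replicates.

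Other genes that every cell uses were represented by smaller numbers. Chaperone genes had 5 members of 14 regions: cdc-48.1, hsp-1, the constitutive Hsp70 gene, at 1.80 and 3.30 in replicates 1 and 2, dnj-9, and the pair at hsp-17. The regions of this pair overlap and were counted separately. Respiratory genes had 3 of 7, cox-5B, cox-5A and atp-2, and cox-5B had 1.79 and 2.94. Histone genes had 3 of 10, his-37, his-42 and his-72, splicing factors 2 of 10, rsp-6 and prp-8, and proteasome genes 2 of 12, rpn-3 and rpt-3. Median relative signals over all regions of a list were 1.40 for respiratory, 1.08 for chaperone and 1.06 for proteasome genes. They were 0.865 for histone and 0.932 for splicing factor genes, below the 1.00 of all autosomal promoter regions. The regions of his-37, rsp-6 and rpt-3 were not found in replicate 1, nor that of his-72 in replicate 2, and prp-8 was at 2.12 and 0.853. The rpn-3 region, shared with hsp-110, was at 2.02 and 3.08. The lists of aminoacyl tRNA synthetase genes (4 regions), vacuolar ATPase genes (3) and small GTPase genes (13) held 0 members; the last list leaves out the Ras gene let-60, a small GTPase gene that has a member. With so few regions these shares have wide intervals, for example 15.8 to 75% for the respiratory genes (Wilson).

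**Figure D4:**
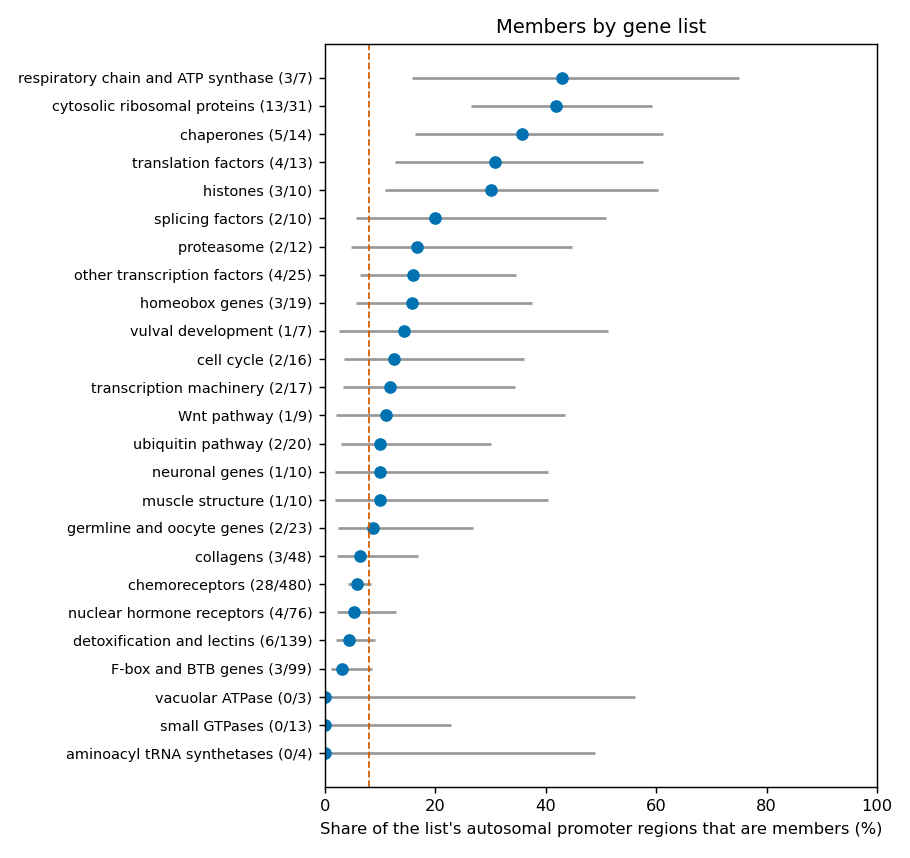
Share of each gene list's autosomal promoter regions that are members (x axis, percent, with 95% Wilson intervals), with members and regions counted beside each name; the dashed line is the background of 7.92%. The whole interval lies above it for ribosomal protein (13 of 31), respiratory (3 of 7), chaperone (5 of 14), translation factor (4 of 13) and histone genes (3 of 10). Chemoreceptor genes are at 28 of 480.

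Genes of regulators were spread around the background of 7.92%, with intervals that contained it. Homeobox genes had 3 of 19 regions (15.8%, 95% Wilson interval 5.52 to 37.6%): ceh-38, ceh-57, and ceh-20, which codes for the Pbx-type partner of Hox proteins. The ceh-20 region lay 930 bp upstream (chrIII:6978782-6979125) with relative signals of 1.68 and 1.86 in replicates 1 and 2, above the list middle in both and outside the thresholded list. Other transcription factor genes had 4 of 25 (16%, 6.4 to 34.7%), among them hlh-11 at 1.56 and 1.95, daf-16, the FOXO gene of insulin signalling, at 1.60 in replicate 1 and not found in replicate 2, and hlh-10. Nuclear hormone receptor genes had 4 of 76 (5.26%, 2.07 to 12.8%), among them nhr-37, nhr-88 and nhr-10. General transcription genes had 2 of 17 (11.8%, 3.29 to 34.3%), cdk-7 and ttb-1, the latter coding for TFIIB.

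Lists of genes for tissues and pathways gave 1 to 3 members each. Vulval development genes had 1 of 7 regions, let-60, the Ras gene of vulval induction, 943 bp upstream of it (chrIV:11691859-11692202) at 1.54 and 1.71 in replicates 1 and 2. Wnt pathway genes had 1 of 9, mig-5. Muscle genes had 1 of 10, tni-4, a troponin I gene, at 1.63 and 0.920, and neuronal genes 1 of 10, snt-6, a synaptotagmin gene, at 1.19 and 1.48. Collagen genes had 3 of 48, col-163, col-54 and col-101, germline and oocyte genes 2 of 23, egg-5 and spe-51, cell cycle genes 2 of 16, cdc-48.1 and cdk-7, and ubiquitin pathway genes 2 of 20, skr-5 and ubc-6.

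The shares of large families of receptor and environmental genes were 3.03 to 5.83%, with Wilson intervals that all contained the background of 7.92%. Chemoreceptor genes, most of them expressed in a few sensory neurons, had 28 members of 480 regions (5.83%, 95% Wilson interval 4.07 to 8.30%), led by sri-18 at 2.06 and 2.19 in replicates 1 and 2, srt-49 at 2.03 and 1.22, and srx-98 at 1.11 and 1.82. None of the 28 was in the thresholded list. Detoxification and lectin genes had 6 of 139 (4.32%, 1.99 to 9.10%), among them gst-3 at 1.84 and 1.41, clec-47 and ugt-4, and F-box and BTB genes 3 of 99 (3.03%, 1.04 to 8.53%), which lay at fbxa-209 and fbxc-15. In all, 93 of the 445 members (20.9%) had their gene in any list, against 19.7% of lower-ranked regions, so most members lay at genes of no list.

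The sequence around the summits was tested first with 12 patterns within 100 bp of the summit on either strand. GAGAGA was in 90 members (20.2%, 95% Wilson interval 16.8 to 24.2%), in 11% of lower-ranked autosomal promoter regions and in 10.5% of all 30000 regions (members against lower-ranked, Fisher's exact test, odds ratio 2.05, adjusted p = 1.0e-06 over 12 patterns). Within quartiles of GC content it passed too, with an odds ratio of 1.78 (Cochran-Mantel-Haenszel test). It was also called in the lists of replicate 1 alone (16.8% against 11.2%, exact test, adjusted p = 0.0112) and replicate 2 alone (20.3% against 11.2%, adjusted p = 3.6e-06). This difference was already known for the 2000 highest regions as a whole, and the members are among those. By rank, GAGAGA was in 32.1% of members up to rank 163 and 35.6% from 164 to 500. The share was 19.6% from 501 to 1000 and 12.1% from 1001 to 2000. That last share was not above the 14.2% of autosomal promoter regions ranked just below the members, down to rank 5000. The higher share of the members thus came from ranks up to 1000, and the differences between ranks were not tested.

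TATAAA, the letters of a TATA box, was rarer: 17.5% of members against 26.1% (Fisher's exact test, odds ratio 0.603, adjusted p = 3.2e-04). The call did not hold in the list of replicate 1 alone (23.5% against 23.8%, exact test, adjusted p = 1) or of replicate 2 alone (21.5% against 26.8%, adjusted p = 0.0644). TTTCAG was in 31.0% against 37.0% (exact test, adjusted p = 0.0478), and it did not pass within quartiles of GC content. Median GC content of the windows was 35.8% in members and 33.3% in lower-ranked regions.

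The patterns of the Hox type did not pass. TGATNNAT, the letters of a composite Hox and Pbx site, was in 64 members (14.4%, 95% Wilson interval 11.4 to 17.9%) and in 16.7% of lower-ranked regions (Fisher's exact test, adjusted p = 0.347). TAATTA, a homeodomain core, was in 9.21% and 11.4% (exact test, adjusted p = 0.347). The remaining 7 patterns, CTCCGCC and GGGCGG (GC-rich types), the letters TGACAG (Meis type), the letters TGATAA (bound by GATA factors), the E-box CAGCTG, the letters TGACGT (CRE type) and a run of 8 letters T, had adjusted p from 0.291 to 0.482. With the 1000 highest regions in place of 2000, TGATAA was called lower in members (13.9% against 20.8%, exact test, adjusted p = 0.0292). These values say nothing of where LIN-39 binds.

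Each member was also its own comparison, with a window of the same length centred 500 bp upstream on the strand of the gene. GAGAGA was in 20.2% of centres and 12.6% of these flanks (exact McNemar test, adjusted p = 0.0208 over 12 patterns), and in 9.89% of windows 500 bp downstream. TTTCAG was in 31.0% of centres and 40.4% of upstream flanks (exact McNemar test, adjusted p = 0.0208). TATAAA was at 17.5% and 20.4% (exact test, adjusted p = 0.724). In the list of replicate 1 alone no pattern passed.

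The 3 patterns that passed did not separate the members from the most similar regions among the same 2000. GAGAGA was in 27.6% of 87 X promoter regions, 19.1% of 466 autosomal intronic regions and 22.6% of 385 autosomal intergenic regions outside promoters, against 20.2% of members. None of the 9 Fisher's exact tests passed after adjustment, and at an unadjusted p under 0.05 there was 1, TTTCAG against the intergenic regions (31.0% against 24.4%, p = 0.0365). The lists are of unequal size, and the one of X promoters is small.

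A scan of all 2080 patterns of 6 letters, a pattern and its complement counted as 1, was added after the data had been seen. It called 118 (5.67%) at an adjusted p under 0.05 (Fisher's exact test, Benjamini-Hochberg over all), 99 higher and 19 lower in members. Of the 99, 70 held a CG, against 604 of all 2080 patterns tested. Of the same 99, 76 had 4 or more letters G or C, and 16 of the 19 lower ones had 4 or more letters A or T. For these classes of letters the share over all patterns was not counted. Within quartiles of GC content 30 were called, all of them among the 118. Overlapping patterns share letters, so these counts are not of separate signals.

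The lowest p belonged to ACGCAG, in 52 members (11.7%) and 4.19% of lower-ranked regions (Fisher's exact test, odds ratio 3.02, adjusted p = 1.5e-06). CGTCTC was in 14.2% and 6.24% (exact test, adjusted p = 1.2e-05) and GACGCA in 11.9% and 4.89% (adjusted p = 1.2e-05). On the other strand ACGCAG reads CTGCGT and the pattern GACGCA reads TGCGTC, so they overlap in CTGCGTC, which the letters of CGTCTC continue. The 7 letters CTGCGTC were in 27 members (6.07%) and 2.15% of lower-ranked regions. Among the same 2000 highest regions they were in 6.90% of X promoter regions, 4.29% of autosomal intronic ones and 3.64% of autosomal intergenic ones outside promoters. Their share was 8.93, 8.22 and 10.8% in members ranked up to 163, from 164 to 500 and from 501 to 1000, and 2.34% from 1001 to 2000. In the list of replicate 1 alone ACGCAG was in 7.69% against 4.44% and missed the threshold (exact test, adjusted p = 0.133).

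GACGAC was in 10.1% against 3.75% (exact test, adjusted p = 1.2e-05), and CGCTCC in 8.31% against 2.73% (adjusted p = 1.2e-05). AGCGCG was in 7.19% against 2.17%, GAGCGC in 8.31% against 2.92% and GCGCGC in 5.39% against 1.37%. AGAGAC, in 15.3% against 7.35%, and GAGAGA share their letters with a GA repeat. The 10 patterns of lowest p were all called also within quartiles of GC content.

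ACACGC, the pattern seen in the highest windows, was eleventh in the scan, in 40 members (8.99%) and 3.48% of lower-ranked regions (Fisher's exact test, odds ratio 2.74, adjusted p = 1.0e-04). Leaving out the 6 members printed first, the share was 7.97%. It was in 30.4% of the 56 thresholded members, 9.59% of those ranked from 164 to 500, 4.90% from 501 to 1000 and 5.14% from 1001 to 2000. Without the thresholded members it missed the threshold (5.91% against 3.48%, exact test, adjusted p = 0.314), while in the lists of replicate 1 and replicate 2 alone it passed (adjusted p = 3.3e-05 and 0.00104). It was in 2.70% of upstream and 2.25% of downstream flanks of the members, in 8.05% of X promoter regions, in 4.51% of the autosomal intronic regions and in 5.45% of the intergenic ones.

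At least 1 of the 3 marked patterns was in 131 members (29.4%) and in 15.3% of lower-ranked regions. By rank the share was 57.1% of thresholded members, 45.2% from 164 to 500, 30.4% from 501 to 1000 and 16.4% from 1001 to 2000, where it was near the 19.4% of autosomal promoter regions ranked just below the members, down to rank 5000. The pattern set was chosen on these data and the shares are a description. Of the 13 ribosomal protein members, 3 held GAGAGA (23.1%, against 20.2% of all members) and 3 held ACACGC (23.1% against 8.99%). The 3 with ACACGC were rpl-3, rpl-35 and rpl-15, whose windows had been read when that pattern was singled out. Their share therefore follows from how ACACGC was picked, and no other ribosomal protein member held it. Of the 18 lower-ranked ribosomal protein regions, 2 held GAGAGA and 1 held ACACGC. Of the 28 chemoreceptor members 1 held GAGAGA (3.57%) and 0 held ACACGC. Lower-ranked chemoreceptor regions held these patterns in 5.09% and 2.43%.

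Several properties moved together along the rank. Median GC content was 42.8% in members ranked up to 163, 37.8% from 164 to 500, 35.6% from 501 to 1000 and 33.3% from 1001 to 2000, the last equal to the 33.3% of all lower-ranked regions. Divergent pairs made up 30.4, 27.4, 11.8 and 11.2% of these ranks, and TATAAA was in 8.93, 12.3, 17.6 and 21.5%. Ribosomal protein genes were the promoter gene of 6 of 56, 3 of 73, 1 of 102 and 3 of 214, and chemoreceptor genes of 0, 4, 7 and 17. The part that GC content, gene kind and gene arrangement have in each other's differences was not tested beyond the GC quartiles above.

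**Figure D5:**
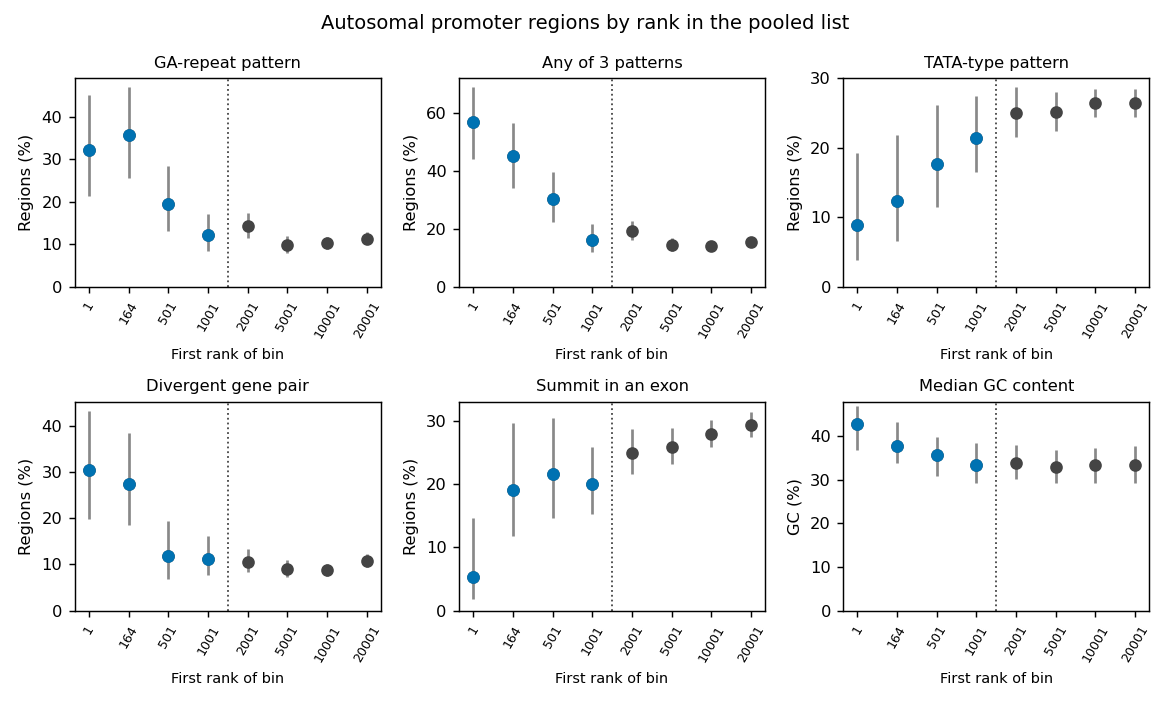
Autosomal promoter regions in 8 bins of rank in the pooled list (x axis, first rank of each bin): share with the GA-repeat pattern, with any of the 3 patterns, with the TATA-type pattern, in a divergent gene pair and with the summit in an exon (percent, bars are 95% Wilson intervals), and median GC content (percent, bars are quartiles); members are left of the dotted line. The share with any of the 3 patterns goes from 57.1% to 16.4% across the members' 4 bins.

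GA repeats of 8 or more bases within 100 bp of the summit were in 17 members (3.82%) and 1.68% of lower-ranked regions. The longest, of 84 bases, was at ida-1, a gene for a protein tyrosine phosphatase-like protein of dense-core vesicles, and only 3 members had a repeat of 12 bases or more. Long repeats thus accounted for few of the 90 members with GAGAGA. The 6-letter pattern was in 20.5% of the 73 divergent members and in 20.2% of the other 372, and in 22.3% of members with the summit within 200 bp of the 5′ end and 18.8% of those farther away.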

How the data were processed

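The data are chromatin immunoprecipitation sequencing of LIN-39-eGFP in 2 biological replicates, assigned to 1 group from the labels. The authors deposited candidate region lists for each replicate and for the pooled replicates on ce11, and a thresholded pooled list of 163 regions; the lists on ce10 were not used. The value used is the signal per region that the authors deposited (never negative). The thresholded list is named as cut by IDR. No source used here gives the aligner, peak caller, IDR cutoff or normalization. Signals were therefore compared between lists only as ratios to each list's median. All pooled and replicate 1 regions are 344 bp wide and those of replicate 2 350 bp.

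Regions were ranked by signal, and summits placed against the 5′ ends of 17242 autosomal protein-coding genes of Ensembl release 115 (WBcel235). Each region was given, as its promoter gene, the one with the nearest 5′ end among the genes whose promoter window held the summit. A region counted as found in a replicate where the summits were each other's nearest within 200 bp. Windows of 201 bp came from the RefSeq genome. Shares were compared by two-sided Fisher's exact tests and exact McNemar tests with Benjamini-Hochberg adjustment, threshold 0.05, and Wilson intervals of 95% (scipy 1.17.1, statsmodels 0.14.6, pandas 2.3.3, Python 3.11.15). Scripts were tested on simulated data. The members, the 25 gene lists and the patterns were chosen with earlier results of these data known.

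Genes named are those of the 20 highest members, up to 3 of each list, up to 5 genes with 2 members, and the 3 regions on each side of the limit; the other genes with 2 members, genes sharing a region with a named one, all ribosomal, chaperone and translation members, eelo-2, T01D3.3, fbxl-1, K12H4.5, ida-1 and the small RNA genes with their regions were added after their values were seen. Alternatives covered the number of regions, the promoter window, the 5′ ends used, the comparison set, the pattern window, GC content and each replicate alone. Both replicates come from separate biosamples of 1 strain, and p-values over regions do not measure the spread between animals.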

Additional observations from a re-analysis of the deposited data

How the results depend on the processing

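The number of members was 231 with the 1000 highest regions, 1001 with the 5000 highest and 274 with a promoter of 500 bp upstream to 100 bp downstream. Applied to 1 replicate at a time, the rule gave 424 to 429 regions. Odds ratios over the lists of single replicates ran from 1.23 to 2.00 for divergent pairs, from 1.15 to 1.34 for operon heads, from 0.937 to 1.15 for summits within 200 bp of the 5′ end and from 0.964 to 1.01 for genes with an operon-like upstream neighbour. For summits within 200 bp of the 5′ end the direction turned in replicate 2 alone (0.937, exact test, adjusted p = 0.679), and for upstream neighbours in replicate 1 alone (1.01, adjusted p = 0.952).

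Operon heads missed the threshold with the 5000 highest regions (odds ratio 1.22), with the 5′ ends of all transcripts (1.26) and without the thresholded members (1.33). Small RNA genes missed it with the shorter promoter (2.99) and without the thresholded members (1.33), and outer arms with the shorter promoter (0.902). Summits within 200 bp of the 5′ end passed with a promoter of 2000 bp upstream (1.38, exact test, adjusted p = 0.00113). Of the 12 patterns, 3 passed; 1 passed within 50 bp and within 150 bp of the summit and in each replicate list, and it was GAGAGA. With the 1000 highest regions 4 passed, TGATAA being the addition (odds ratio 0.614, adjusted p = 0.0292, exact test). The cause of these changes was not tested. Centre against flank passed for 2 patterns, for 1 in replicate 2 alone and for 0 in replicate 1 alone. The scan called 118 patterns, 30 within GC quartiles, 10 without the thresholded members (fewer regions), 26 in replicate 1 alone and 83 in replicate 2 alone. Comparisons with like regions gave 0 calls under each alternative run, and 339 members were found in both replicates with summits within 100 bp. The alternatives without the thresholded members, and all those of the scan, were added after seeing the data.

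No paired analysis was possible because the series holds a single group. The depth of the libraries is unknown, and 2 replicates limit the precision of each relative signal.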
